A study of Ovis aries with 8 samples.

Results

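The conjugation enzymes of the liver attach a large polar group to bilirubin, bile acids, steroids, fatty acid breakdown products, plant compounds and drugs, so that the product can be excreted in bile or urine. UDP-glucuronosyltransferases (UGT) sit in the endoplasmic reticulum and transfer glucuronic acid from UDP-glucuronic acid. Glutathione S-transferases (GST) join the tripeptide glutathione to reactive electrophiles, glycine N-acyltransferases (GLYAT) join acyl groups from acyl-CoA to glycine in mitochondria, and sulfotransferases (SULT) transfer sulfonate from the donor PAPS. Every gene of a deposited expression table whose annotation named one of the first 3 enzyme types, or whose symbol began with UGT1, UGT2, UGT3, GLYAT or SULT, was taken. This gave 63 of 27729 genes, made up of 26 UGT, 28 GST, 4 GLYAT and 5 SULT genes. One of the GST genes, GSTCD, shares only a domain name with the transferases.

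The table came from poly(A) RNA sequencing of liver from 8 Assaf lambs, one library per lamb, in a study of milk replacer restriction. The 4 ADL lambs (ADL 1 to ADL 4) had milk replacer at 200 g dry matter per L ad libitum, with 192 mL per kg given in the labels, and were slaughtered at 33 to 36 days of age and 10.4 to 12.45 kg. The RES diet was restricted to 120 mL per kg, and these 4 lambs (RES 1 to RES 4) were slaughtered at 33 to 36 days and 7.5 to 8.7 kg, so that diet and body weight differ together and cannot be told apart. The recovered depth was 15134039 to 17879918 reads per lamb. Hepatocyte markers (10 of 10 found, none at 0) made up 11.4 to 15.0% of all transcript levels (TPM, a level scaled to gene length) in ADL and 13.1 to 18.1% in RES. Cholangiocyte markers summed to 0.0131 to 0.0289% in ADL and 0.0136 to 0.0184% in RES, with 8 of 8 found and none at 0. Taken one by one, 7 of these 8 markers were lower in RES and 1 was higher, with a median log2 fold change (RES over ADL) of -0.71. In bulk liver, fewer cells of a type and less RNA per cell cannot be told apart.

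The libraries of ADL 3 and RES 4 stood apart from their groups in ways that touch these genes. Acute phase markers, 11 of 13 found, made up 18.5% of TPM in ADL 3 and 15.4% in RES 4, against 4.34 to 11.3% in the other 6 lambs. Periportal hepatocyte markers, 9 of 10 found, made up 0.489% of TPM in ADL 3 and 0.627 to 0.775% in the RES lambs, against 1.62 to 1.77% in the other ADL lambs. Pericentral hepatocyte markers, 9 of 10 found and none at 0, made up 0.493, 0.711, 0.37 and 0.72% of TPM in ADL 1 to ADL 4 and 0.79, 0.926, 0.785 and 0.644% in RES 1 to RES 4, with ADL 3 lowest in ADL. The part of these differences in the results below was not tested. Results are given for all 8 lambs and, where it changes a call, without ADL 3. An earlier look at these data had already singled out ADL 3, so leaving it out was chosen with results known. Leaving out ADL 1, ADL 2 or ADL 4 in its place called 0 conjugation enzyme genes.

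Of the 63 genes, 44 reached a mean of 1 TPM and were tested: 19 UGT, 20 GST, 3 GLYAT and 2 SULT genes. The other 19 had means of at most 0.783 TPM; 5 of them were listed at 0 in every lamb and 6 are pseudogenes in the RefSeq gene table. One tested gene, LOC101106291, had a mean under 1 TPM in one group. Between 10.5 and 12058.9 reads per lamb on average lay behind a tested gene, with 6 genes under 100. All 63 genes summed to 5572 ± 483 TPM in ADL and 8282 ± 1370.2 TPM in RES (SD, n = 4 lambs in each group here and below).

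The UGT and GLYAT families were the ones whose summed level separated the groups in all 8 lambs. UGT genes summed to 2153, 2139, 1569 and 1833 TPM in ADL 1 to ADL 4 and to 3554, 4763, 2887 and 2429 TPM in RES 1 to RES 4, 1.77 times higher in RES by the group means. GLYAT genes summed to 294, 293, 442 and 308 TPM in ADL and to 1289, 904, 1142 and 853 TPM in RES, 3.13 times higher. In both families the lowest RES lamb lay above the highest ADL lamb. GST genes summed to 2798 ± 268 TPM in ADL and 3253 ± 361 TPM in RES, and SULT genes to 516 ± 210.3 and 574 ± 117 TPM, with overlapping lambs in both families. These sums are descriptions and carry no test. They leave out genes of the same enzyme types that are annotated in other words, described under Other observations. Among those, bile salt sulfotransferase-like LOC101119842 had 1020.3 ± 316 TPM in ADL and 1267 ± 174 TPM in RES, more than the SULT sums. GSTA1-1, a microsomal GST, had 478 ± 118 and 1257 ± 610 TPM.

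**Figure D1:**
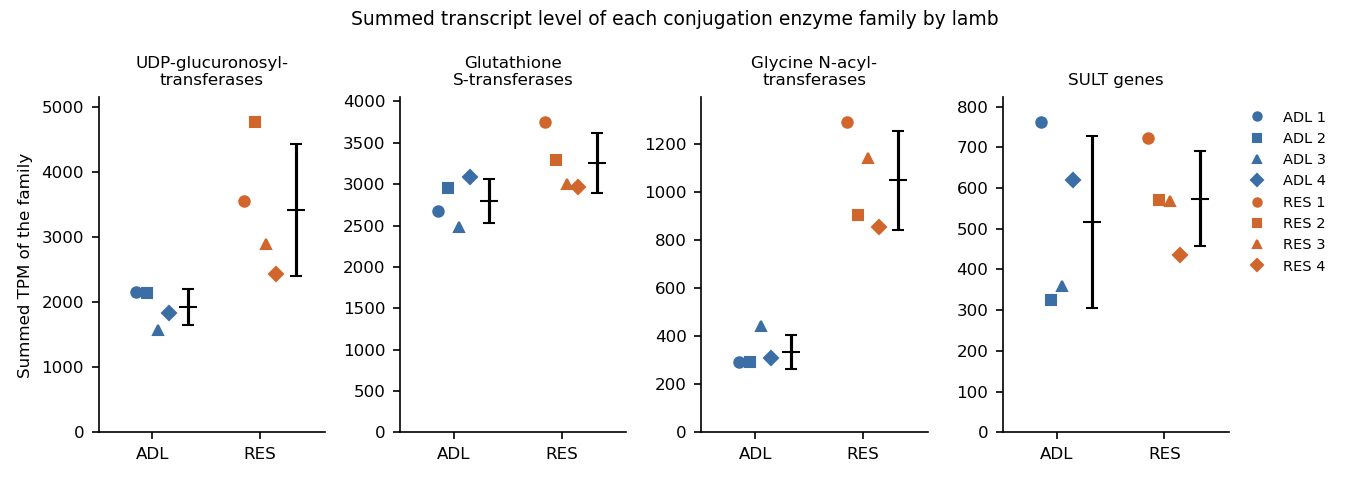
Summed TPM of the 4 conjugation enzyme families, one panel per family, with one point per lamb (ADL in blue, RES in orange, symbols for lamb numbers) and the group mean with its SD (n = 4) in black. The RES lambs lie above every ADL lamb for the UDP-glucuronosyltransferases (2429 to 4763 against 1569 to 2153 TPM) and the glycine N-acyltransferases (853 to 1289 against 293 to 442 TPM), and overlap the ADL lambs in the other families.

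Gene by gene, the 44 tested genes had a median log2 fold change, RES over ADL on the log2(TPM + 0.5) scale, of 0.52, against -0.04 over all 13812 genes tested. Of the 44, 31 were higher in RES and 13 lower, where 43.5% of all genes were higher and 56.5% lower. With all 8 lambs no conjugation enzyme gene passed the limma threshold of an adjusted p of 0.05, which 1 gene in the whole table passed (0.00724%); voom on recovered reads called none either. At an unadjusted limma p under 0.05, 20 of the 44 were higher and 4 lower, beside 5.53% and 4.17% of all genes (9.70% in either direction). The 4 RES lambs lay above all 4 ADL lambs in 13 of the 44, which were 9 UGT, 2 GST and 2 GLYAT genes, and below them in none. Over all genes tested, 2.80% lay above in this way and 1.68% below.

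Leaving out ADL 3 gave 12 conjugation enzyme genes that rose and 2 that fell at a limma adjusted p under 0.05, where 2.42% of 13815 genes rose and 7.59% fell (10.0% in all). Without that lamb the 4 RES lambs lay above the 3 ADL lambs in 19 of the 44 and below them in 3, beside 6.16% and 21.7% of all genes. More genes fell than rose without ADL 3, with a median of -0.13 over the whole table. With TPM also rescaled by the median of ratios, this median moved to 0.01. After that rescaling 16 members rose and 2 fell, beside 616 and 534 of 13807 genes (8.33% in all). All 14 members called without it were among those 18, and the added genes were GSTT2B, GSTZ1, LOC101117163 and LOC101117764. Leaving out RES 4 in place of ADL 3 gave 3 calls, LOC101108685, LOC101118189 and LOC101119393 (0.355% of all genes passed). Down-weighting by sample quality, which gave ADL 3 a weight of 0.16, gave 22 calls, 20 of them higher and 2 lower. In that fit 729 of 13812 genes were called higher and 1240 lower (14.3% in all). In the authors' deposited table, 16 of the 51 members with an adjusted p were higher in RES and 1 was lower at a threshold of 0.05, beside 1.25% and 1.05% of the 16794 genes with an adjusted p there (2.30% in all). Of these 17 members, 10 were also called without ADL 3. GLYATL3, LOC101110177, LOC101115083 and LOC101115543 were called without ADL 3 but not by the authors (deposited DESeq2 adjusted p of 0.809, 0.0838, 0.121 and 0.164).

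The largest block of higher genes was the UGT2 cluster, whose products in other mammals glucuronidate steroids, bile acids and fatty acids. The sources used here do not give the genome build of the deposited coordinates, in which 16 UGT2 genes lay on the minus strand of chromosome 6 between 84006739 and 84757230, a span of 750 kb. All 10 that were tested were higher in RES, with a median log2 fold change of 1.24 and the same direction under each of the 18 alternative settings tried; with no level filter, 14 of 15 were higher. The other 6 were under the level filter, and 5 of them are pseudogenes in RefSeq. Summed over the cluster, levels were 1182 ± 72.8 TPM in ADL and 2657 ± 908 TPM in RES, with an ADL range of 1108 to 1280 TPM and a RES range of 1839 to 3889 TPM.

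**Figure D2:**
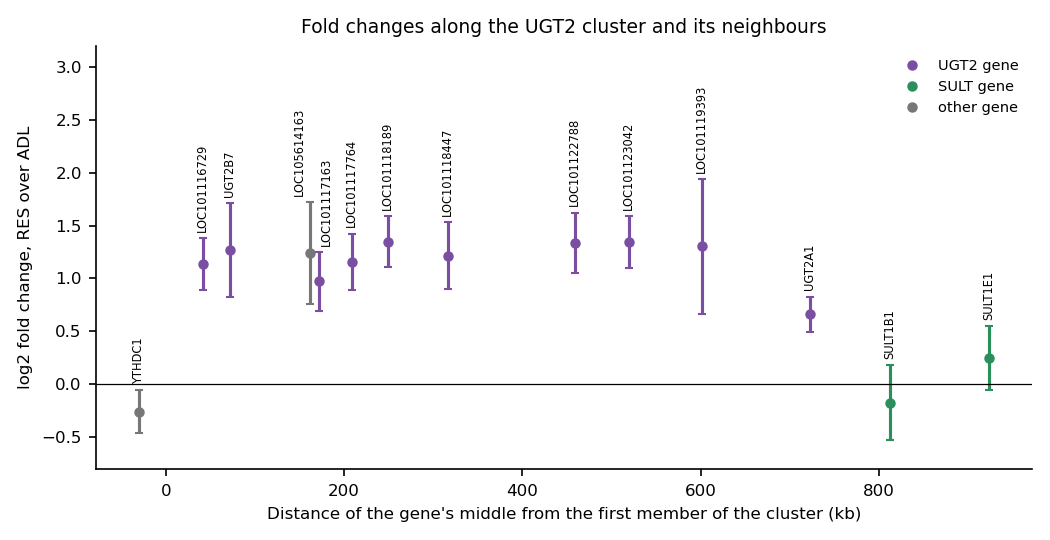
Limma log2 fold change (RES over ADL, 8 lambs, log2(TPM + 0.5) scale) with its SE for each tested gene along the UGT2 cluster of chromosome 6 and its neighbours, against the distance of the gene's middle from the first gene of the cluster in kb. The 10 UGT2 genes (purple) lie between 0.66 and 1.35, while the sulfotransferase genes beyond the cluster (green) lie at -0.17 and 0.25 and YTHDC1 (grey), before it, at -0.26. LOC105614163 (also grey), an uncharacterized gene on the opposite strand inside the cluster, lies at 1.24.

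The most abundant gene of the cluster was LOC101116729, annotated as UDP-glucuronosyltransferase 2B31-like and lying on chromosome 6 at 84037682 to 84058971. It had 236, 267, 452 and 276 TPM in ADL 1 to ADL 4 and 585, 899, 556 and 626 TPM in RES 1 to RES 4. Every RES lamb was above every ADL lamb, and ADL 3 was the highest of its group. The log2 fold change was 1.13 (SE 0.24, adjusted p by limma = 0.272), and without ADL 3 it was 1.33 (adjusted p by limma = 0.00984).

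UGT2B7, on chromosome 6 at 84070964 to 84087319 and next along the cluster, codes in humans for an enzyme that glucuronidates morphine and many steroids. Its levels were 239, 348, 119 and 261 TPM in the ADL lambs and 689, 1124, 348 and 325 TPM in the RES lambs. RES 1 and RES 2 stood well above the rest, while RES 3 and RES 4 lay within the ADL range or just at its top. Its log2 fold change of 1.27 (SE 0.44) did not pass with 8 lambs (adjusted p by limma = 0.408) or without ADL 3 (adjusted p by limma = 0.172), whereas the authors' deposited table gives an adjusted p of 0.0372.

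LOC101117764, annotated as 2B4-like after the human enzyme that acts on bile acids, had 196, 174, 149 and 149 TPM in the ADL lambs and 391, 630.2, 291 and 262 TPM in the RES lambs. Groups did not overlap, and RES 2 was the highest lamb (log2 fold change 1.16, SE 0.27, adjusted p by limma = 0.28). LOC101118189, annotated as 2B17-like after the human enzyme that acts on androgens, had 37.5, 42.2, 29.9 and 31.7 TPM in the ADL lambs and 105, 132, 74.4 and 63.5 TPM in the RES lambs. Its log2 fold change was 1.35 (SE 0.24, adjusted p by limma = 0.182), and 1.27 without ADL 3 (adjusted p by limma = 0.0236). The ADL lambs of this gene lay close together, within a factor of 1.41, and the RES lambs within a factor of 2.08. LOC101118447, a further 2B31-like gene, had 31.7, 36.2, 33.2 and 38.4 TPM in the ADL lambs and 86.6, 158, 66.9 and 47.8 TPM in the RES lambs, again with RES 2 highest and RES 4 lowest of the RES lambs (log2 fold change 1.21, adjusted p by limma = 0.283).

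A pair of genes annotated as UDP-glucuronosyltransferase 2C1-like, a name taken from a rabbit enzyme, occupied overlapping places. LOC101123042 lies wholly inside the span of LOC101122788 on the same strand, sharing 17108 bases, so the counts of the pair may not be independent. LOC101122788 had 27.8, 38.7, 62.6 and 40.1 TPM in the ADL lambs and 134, 102, 125 and 66.2 TPM in the RES lambs (log2 fold change 1.34, adjusted p by limma = 0.272; 1.54 and 0.0145 without ADL 3). LOC101123042 had 13.4, 24.2, 29.1 and 24.1 TPM in the ADL lambs and 64.8, 55.4, 62.8 and 44.2 TPM in the RES lambs (log2 fold change 1.34, adjusted p by limma = 0.182; 1.48 and 0.0131 without ADL 3). The level of the former was 1.50 to 2.15 times that of the latter across the 8 lambs, and the sharing of reads between them was not tested.

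At the far end of the cluster, UGT2A1, known in mammals for glucuronidating odorants in the nose, had the smallest difference of the 10 genes and a tight spread. It had 199, 193, 174 and 153 TPM in the ADL lambs and 282, 333, 285 and 239 TPM in the RES lambs, with no overlap. The log2 fold change was 0.66 (SE 0.17, adjusted p by limma = 0.28), and it rose without ADL 3 (log2 fold change 0.65, adjusted p by limma = 0.0416). The neighbouring LOC101119393, annotated as 2A1-like, behaved differently in 1 lamb: it had 40.3, 56.4, 29.7 and 37.4 TPM in the ADL lambs and 198, 185, 130.0 and 20.1 TPM in the RES lambs. RES 4 was the lowest of all 8 lambs, and the limma adjusted p of 0.559 with 8 lambs fell to 0.0171 when RES 4 was left out, and the log2 fold change moved from 1.30 to 2.06. LOC101117163, annotated as 2B18-like, had 108 ± 39.3 TPM in ADL against 209 ± 53.7 TPM in RES and a log2 fold change of 0.97 (adjusted p by limma = 0.306). It overlaps LOC105614163, an uncharacterized gene on the opposite strand with a log2 fold change of 1.24, and since no source used here says whether counting used the strand, reads of the pair cannot be told apart.

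One lamb order recurred through the UGT2 genes. RES 4 was the lowest RES lamb in 10 of the 11 tested UGT2 genes (90.9%), against 41.9% of all genes tested, and RES 2 was the highest in 8 of the 11 (72.7%, against 22.2%). The 11 are the 10 genes of the cluster and LOC101107004, a 2C1 pseudogene with no chromosome in the table, at 11.4 ± 3.56 TPM in ADL against 21.7 ± 12.6 TPM in RES. RES 4 was also the RES lamb with the high acute phase share of 15.4%; among the RES lambs the pericentral hepatocyte markers were lowest in RES 4 (0.644% of TPM) and highest in RES 2 (0.926%). The part of either in the UGT2 levels was not tested. Outside the cluster the next expressed genes had smaller differences: YTHDC1, an RNA-binding gene, had a log2 fold change of -0.26, and SULT1B1 and SULT1E1 had -0.17 and 0.25.

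**Figure D3:**
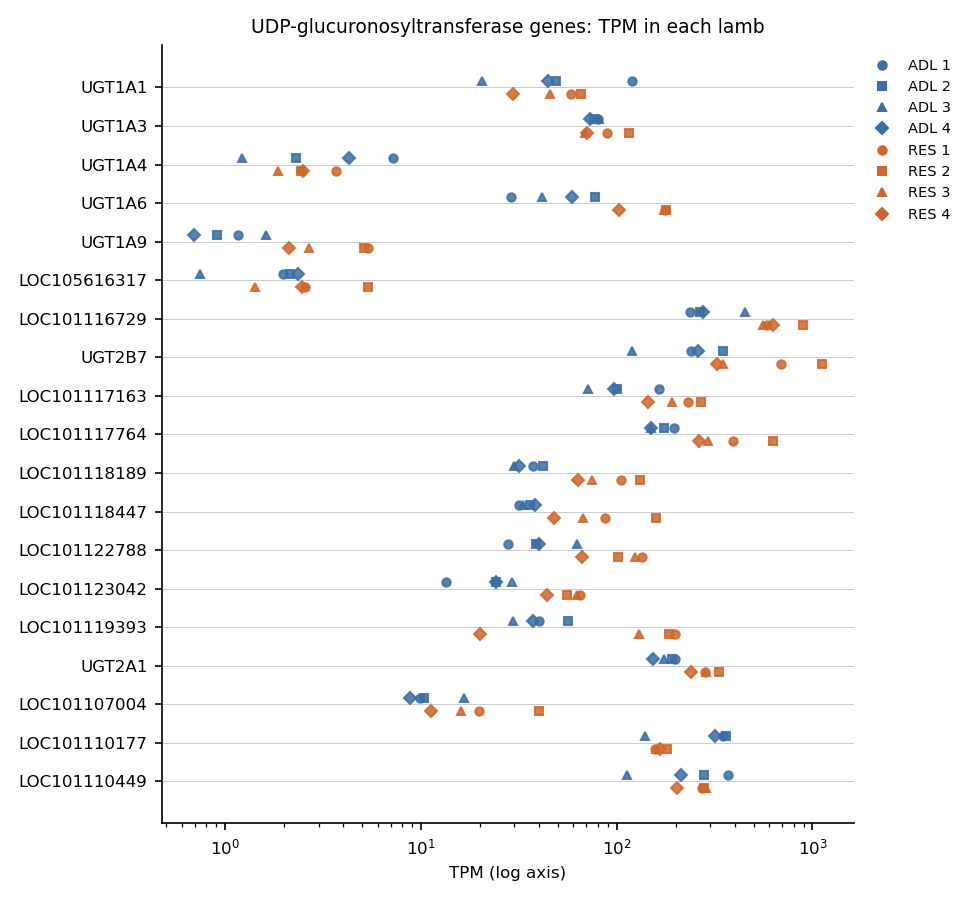
TPM on a log axis of the 19 tested UDP-glucuronosyltransferase genes in each lamb (ADL in blue above the line of each gene, RES in orange below it, symbols for lamb numbers). RES points lie to the right of all ADL points in 9 genes, 7 of them UGT2 genes together with UGT1A6 and UGT1A9, and LOC101110177 is the gene with RES 1 to RES 4 (157 to 180 TPM) left of ADL 1, ADL 2 and ADL 4.

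UGT1 genes glucuronidate bilirubin and phenols, and share their 3′ exons while each has its own first exon. In the table the genes named UGT1A share the start coordinate 7005744 on chromosome 1, and the locus spans 168 kb, so that reads in the shared exons cannot be assigned to one gene with certainty. Within the locus UGT1A6 and UGT1A9 separated the groups and the other genes did not.
UGT1A6, whose human product acts on small planar phenols, had 28.99, 77.9, 41.6 and 58.9 TPM in the ADL lambs and 177, 178, 175 and 102 TPM in the RES lambs. Its log2 fold change was 1.66 (SE 0.31, adjusted p by limma = 0.182), 1.58 without ADL 3 (adjusted p by limma = 0.0305) and past the threshold in the authors' deposited table (adjusted p = 0.000439). RES 4 was the lowest RES lamb, but still above the highest ADL lamb. UGT1A9, which in humans acts on bulky phenols, was scarce, with 1.17, 0.906, 1.61 and 0.689 TPM in the ADL lambs and 5.36, 5.09, 2.67 and 2.12 TPM in the RES lambs and a mean of 50.8 reads per lamb (log2 fold change 1.38, adjusted p by limma = 0.272; 1.53 and 0.0262 without ADL 3).

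UGT1A1, the bilirubin-conjugating enzyme, had 120.2, 48.7, 20.5 and 44.5 TPM in the ADL lambs and 58.4, 65.3, 45.5 and 29.6 TPM in the RES lambs. ADL 1 was the highest of the 8 lambs and ADL 3 the lowest, so the ADL group enclosed the RES group (log2 fold change -0.02, SE 0.47, adjusted p by limma = 0.995). UGT1A3 had 77.6 ± 3.48 TPM in ADL against 86.0 ± 21.9 TPM in RES (log2 fold change 0.12, adjusted p by limma = 0.871), and UGT1A4 had 3.74 ± 2.63 TPM in ADL against 2.62 ± 0.770 TPM in RES (log2 fold change -0.25). As a share of all UGT1 TPM, UGT1A6 had a mean of 27.4% in ADL, with a range of 12.0 to 37.3%, and of 52.0% in RES, with a range of 47.7 to 59.2%. UGT1A1 made up 27.8% and 16.1% by the group means, and UGT1A3 41.1% and 28.6%.

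UGT3A1, which in humans uses UDP-N-acetylglucosamine in place of UDP-glucuronic acid, was the UGT gene that fell without ADL 3. LOC101110177, annotated by that name on chromosome 16 at 38081364 to 38108420, had 349, 362, 139 and 319 TPM in the ADL lambs and 157, 180.3, 159 and 165 TPM in the RES lambs. ADL 3 was the lowest of the 8 lambs and lay apart from its group mates, which were all above every RES lamb. The log2 fold change was -0.73 with 8 lambs (SE 0.29, adjusted p by limma = 0.477), and the gene fell by 1.05 without ADL 3 (SE 0.12, adjusted p by limma = 0.00377). Its neighbour LOC101110449, annotated as 3A1-like, had 368, 278, 113 and 212 TPM in the ADL lambs and 271, 280.1, 284 and 204 TPM in the RES lambs, which overlapped (log2 fold change 0.21; -0.11 without ADL 3). The level of LOC101110177 relative to LOC101110449 was 0.95 to 1.50 in the ADL lambs and 0.56 to 0.81 in the RES lambs, with ADL 3 at 1.23 on the ADL side.

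GST genes went both ways by class. All 4 tested alpha genes and all 4 tested mu genes were lower in RES by fold change, with medians of -1.16 and -1.11, and the omega, theta, kappa, zeta and pi genes were higher. No alpha or mu gene separated the 8 lambs, and leaving out ADL 2 or RES 4 left 3 of the 4 alpha genes lower. The alpha gene GSTA1 was lower on the log scale alone, with mean levels of 224 TPM in ADL and 235 TPM in RES. Another alpha gene, LOC101106291, had a mean of 10.5 reads per lamb.

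Alpha GSTs reduce lipid hydroperoxides and conjugate the aldehydes that come from them. LOC101107232, annotated as GSTA4, which in mammals removes the lipid aldehyde hydroxynonenal, lay on chromosome 20 at 24928964 to 24942774 and had 124, 38.8, 16.9 and 51.6 TPM in the ADL lambs and 13.7, 8.21, 8.72 and 18.1 TPM in the RES lambs. ADL 3, at 16.9 TPM, lay within the RES range, and the other ADL lambs were above every RES lamb. The log2 fold change was -1.93 (SE 0.52, adjusted p by limma = 0.292), and the gene fell by 2.39 without ADL 3 (adjusted p by limma = 0.0169). It is the 1 conjugation enzyme gene that the authors' deposited table calls lower in RES (adjusted p = 0.0027). LOC101106720, an A1-like gene of the same 118 kb stretch of chromosome 20, had 176, 112, 11.6 and 175 TPM in the ADL lambs and 108, 38.8, 11.1 and 7.59 TPM in the RES lambs. It varied 15.2-fold within ADL and 14.3-fold within RES, and did not pass with 8 lambs (log2 fold change -1.68, SE 1.00, adjusted p by limma = 0.645) or without ADL 3 (log2 fold change -2.59, adjusted p by limma = 0.0785). GSTA1, a single-exon gene on chromosome 7 at 97194309 to 97194977, had 247, 305, 99.9 and 246 TPM in the ADL lambs and 453, 266, 149.7 and 72.8 TPM in the RES lambs, and the RES lambs enclosed the ADL lambs (log2 fold change -0.12).

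Mu GSTs conjugate a broad range of electrophiles, and their tested genes lie within 130 kb of chromosome 1. LOC101107401, annotated as GST Mu 1 and the most abundant of these GST genes, had 310.1, 632, 684 and 925 TPM in the ADL lambs and 339, 229, 309.7 and 868 TPM in the RES lambs. RES 4 lay far above the other RES lambs and ADL 1 far below the other ADL lambs (log2 fold change -0.64, SE 0.44, adjusted p by limma = 0.692). LOC101108092, also annotated as GST Mu 1, had 11.1, 113, 27.9 and 14.6 TPM in the ADL lambs and 5.90, 9.05, 14.0 and 9.68 TPM in the RES lambs, and ADL 2 stood out. Its close relative LOC101107831 was highest in ADL 2 as well, at 8.07 TPM against 0.772 to 1.90 TPM in the other ADL lambs, and whether these near copies share reads was not tested. GSTM3 had 34.1 ± 14.2 TPM in ADL against 14.5 ± 8.43 TPM in RES (fold change on the log2 scale -1.39, SE 0.52, adjusted p by limma = 0.444).

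**Figure D4:**
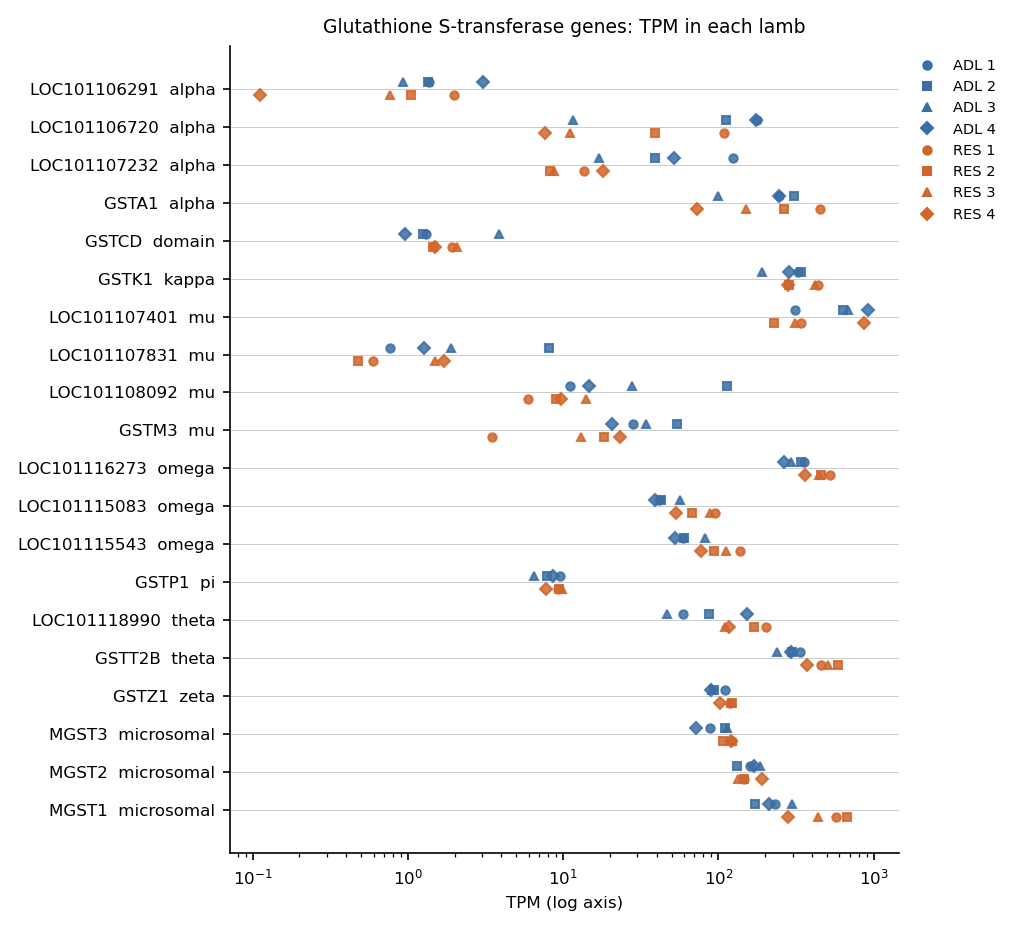
TPM on a log axis of the 20 tested glutathione S-transferase genes in each lamb, grouped by class (ADL in blue above the line of each gene, RES in orange below it, symbols for lamb numbers). RES points lie right of all ADL points in GSTT2B (369.9 to 586 against 239 to 333 TPM) and LOC101116273 (363 to 526 against 265 to 358 TPM), while alpha and mu genes spread widely within each group.

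Omega and theta genes were the higher side of the GST family. Omega GSTs act as thiol transferases and reduce dehydroascorbate. LOC101116273, annotated as omega-1-like on chromosome 22 at 23838681 to 23852088, had 358, 342, 295 and 265 TPM in the ADL lambs and 526, 459, 444 and 363 TPM in the RES lambs, without overlap (log2 fold change 0.51, SE 0.18, adjusted p by limma = 0.411). LOC101115083, a neighbouring omega-1-like gene, had 45.0 ± 7.98 TPM in ADL against 76.3 ± 19.5 TPM in RES (log2 fold change 0.73, adjusted p by limma = 0.329) and rose without ADL 3 (log2 fold change 0.85, adjusted p by limma = 0.0394). LOC101115543, annotated as an omega-1 pseudogene on chromosome 7, had 63.5 ± 12.8 TPM in ADL against 105 ± 25.9 TPM in RES and also rose without ADL 3 (log2 fold change 0.83, adjusted p by limma = 0.0369). The RefSeq gene table lists LOC101115543 as protein-coding. It stood at 1.25 to 1.46 times the level of LOC101115083 in each of the 8 lambs, and the sharing of reads between them was not tested.

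GSTT2B, a theta GST, which in mammals acts on small organic halides and hydroperoxides, had 333, 297, 239 and 295 TPM in the ADL lambs and 457, 586, 504 and 369.9 TPM in the RES lambs. No RES lamb overlapped an ADL lamb, and the log2 fold change was 0.71 (SE 0.19, adjusted p by limma = 0.292; adjusted p = 0.000386 in the authors' deposited table). Its place on chromosome 17 at 70572495 to 70580037 lies within that of LOC101118990, annotated as theta-1, on the same strand, with 7543 shared bases. LOC101118990 had 86.3 ± 47.7 TPM in ADL against 149 ± 43.5 TPM in RES (log2 fold change 0.89, adjusted p by limma = 0.481), and reads of the overlapping pair may have been counted for either.

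Microsomal GSTs belong to a separate family of membrane proteins. MGST1, of the endoplasmic reticulum and outer mitochondrial membrane, had 231, 173, 299 and 212 TPM in the ADL lambs and 568, 677, 435 and 279 TPM in the RES lambs. RES 4 lay just under ADL 3, and all other RES lambs were above every ADL lamb (log2 fold change 1.05, SE 0.29, adjusted p by limma = 0.296). It rose without ADL 3 (log2 fold change 1.19, adjusted p by limma = 0.0416). MGST2, which makes leukotriene C4 in mammals, had 161 ± 22.6 TPM in ADL against 154 ± 25.2 TPM in RES (log2 fold change -0.07), and MGST3 had 95.8 ± 19.5 TPM in ADL against 118 ± 7.17 TPM in RES (log2 fold change 0.32). Among single-gene classes, GSTK1 of mitochondria and peroxisomes, GSTZ1 of tyrosine breakdown and GSTP1 had log2 fold changes of 0.32, 0.27 and 0.15, with limma adjusted p of 0.714, 0.608 and 0.805.

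Glycine conjugation turns benzoate and other organic acids into glycine conjugates such as hippurate. The leading gene, LOC101108685, is annotated as glycine N-acyltransferase (GLYAT in RefSeq) and lies on chromosome 15 at 79107407 to 79121160. It had 137, 145, 323 and 229 TPM in the ADL lambs and 838, 694, 811 and 647 TPM in the RES lambs, and the lowest RES lamb was above the highest ADL lamb. Within ADL the highest value was that of ADL 3, so the log2 fold change of 1.92 (SE 0.27, adjusted p by limma = 0.108) widened to 2.16 without it (adjusted p by limma = 0.00229). The gene also passed without RES 4 (adjusted p by limma = 0.0413).
Next to it on the same strand, LOC101108419, annotated as glycine N-acyltransferase-like, had 149, 143, 73.3 and 77.0 TPM in the ADL lambs and 417, 172, 313 and 182 TPM in the RES lambs. The groups did not overlap, but RES 2 and RES 4 were only just above ADL 1 and ADL 2 (log2 fold change 1.27, SE 0.35, adjusted p by limma = 0.296). The level of LOC101108685 relative to LOC101108419 ran from 0.92 in ADL 1 to 4.41 in ADL 3, so the neighbours did not keep 1 ratio across lambs. GLYATL3, which in mice has been tied to long-chain acylglycines, had 7.21, 5.22, 45.4 and 2.02 TPM in the ADL lambs and 33.9, 38.0, 18.0 and 24.1 TPM in the RES lambs. ADL 3 was the highest of all 8 lambs, while the other ADL lambs lay below every RES lamb. Its log2 fold change was 1.72 (SE 0.73, adjusted p by limma = 0.496). It rose without ADL 3 (log2 fold change 2.54, adjusted p by limma = 0.0127), whereas the authors' deposited table, with all 8 lambs, gives an adjusted p of 0.809. GLYATL2 was listed at 0 in every lamb.

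Sulfotransferases whose symbol begins with SULT showed no separation. SULT1E1, the oestrogen sulfotransferase, on chromosome 6 at 84901512 to 84959463, had 709, 292, 340.1 and 576 TPM in the ADL lambs and 677, 549.9, 535 and 407 TPM in the RES lambs. ADL lambs enclosed the RES lambs (log2 fold change 0.25, SE 0.30, adjusted p by limma = 0.825). SULT1B1, which sulfates thyroid hormone and phenols, had 51.9, 32.0, 17.6 and 44.0 TPM in the ADL lambs and 44.8, 18.8, 32.9 and 28.5 TPM in the RES lambs, and its log2 fold change of -0.17 (SE 0.35, adjusted p by limma = 0.907) changed sign when ADL 1 or RES 2 was left out. SULT2B1, SULT4A1 and SULT6B1 were below the level filter.

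The supply of cofactors did not follow the transferases as a block. These companion lists were drawn up from general knowledge with earlier results of these data known, and are given by counts, by genes among the 3 with the smallest p in each list, and by the genes called without ADL 3. Other genes of these lists named below were chosen after their values were seen. For glucuronidation, 9 of 9 genes of UDP-glucuronic acid and sugar supply were tested, 4 were higher and 5 lower, and the median log2 fold change was -0.07. PGM1, which feeds glucose phosphate into UDP-glucose synthesis, had 36.3 ± 9.02 TPM in ADL against 54.8 ± 6.93 TPM in RES and rose without ADL 3 (log2 fold change 0.75, adjusted p by limma = 0.0343). UGP2, which makes UDP-glucose, had 385, 429, 93.6 and 347 TPM in the ADL lambs and 153, 173, 198 and 170.5 TPM in the RES lambs. ADL 3 was the lowest of the 8 lambs and the other ADL lambs were above every RES lamb. With 8 lambs the log2 fold change was -0.64 (adjusted p by limma = 0.681), and UGP2 fell without ADL 3 (log2 fold change -1.15, adjusted p by limma = 0.00469). UGDH, which oxidises UDP-glucose to UDP-glucuronic acid, had 161 ± 49.7 TPM in ADL against 230.2 ± 56.1 TPM in RES (log2 fold change 0.53, adjusted p by limma = 0.517). SLC35B1, a nucleotide transporter of the endoplasmic reticulum, had 29.7 ± 2.58 TPM in ADL against 23.0 ± 1.61 TPM in RES and was lower in every RES lamb than in any ADL lamb (log2 fold change -0.36, adjusted p by limma = 0.453).

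PAPS is the donor of sulfation. PAPSS2, a synthase that makes PAPS, had 644, 599, 81.8 and 679.5 TPM in the ADL lambs and 86.8, 76.9, 84.8 and 125 TPM in the RES lambs. ADL 3 lay among the RES lambs and the other ADL lambs stood several times higher. With 8 lambs the log2 fold change was -2.06 (SE 0.61, adjusted p by limma = 0.329), and without ADL 3 the gene fell by 2.80 (adjusted p by limma = 0.000649). Periportal markers placed ADL 3 with the RES lambs in the same way, at 0.489% of TPM; their part in this result was not tested. Of the 8 tested genes of the list, 3 were higher and 5 lower, and SLC26A2 and SUOX had log2 fold changes of -0.48 and 0.33.

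**Figure D5:**
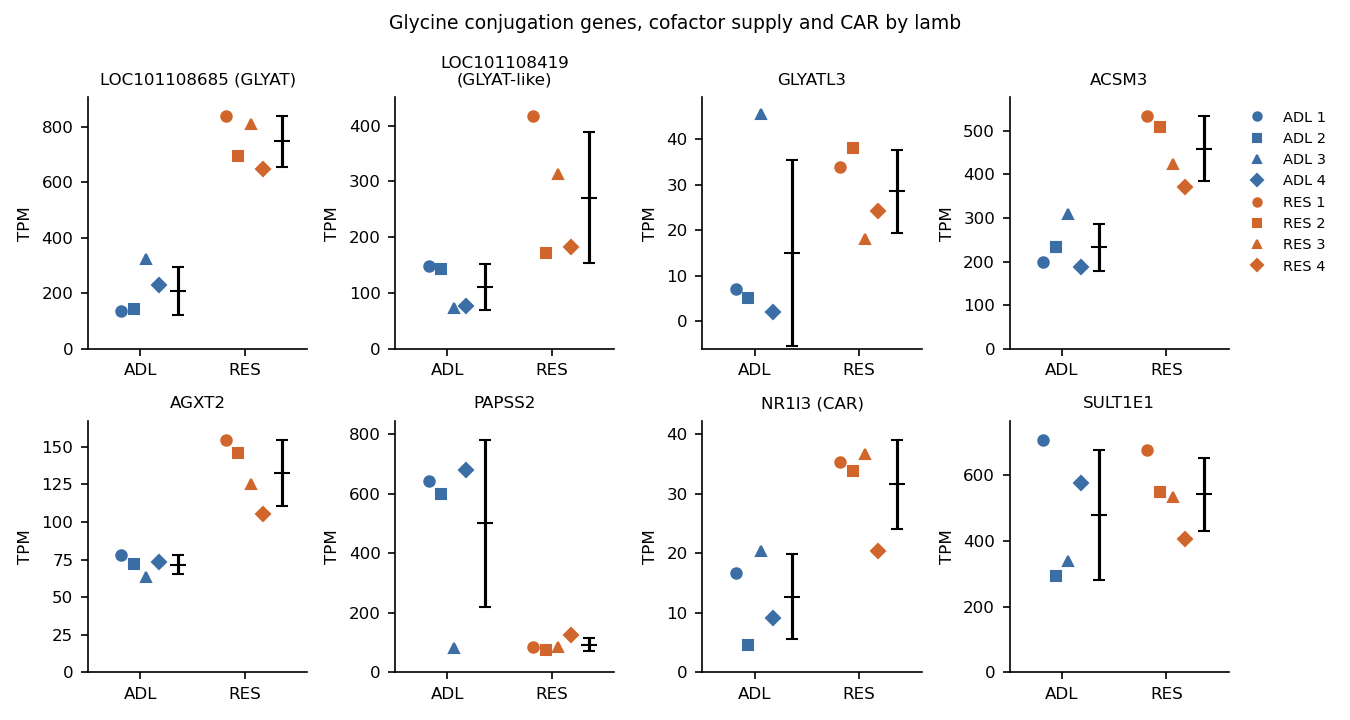
TPM in each lamb of genes of glycine conjugation, cofactor supply and the receptor CAR, with SULT1E1 beside them (ADL in blue, RES in orange, symbols for lamb numbers, group mean with its SD in black, n = 4). LOC101108685, LOC101108419, ACSM3, AGXT2 and NR1I3 are higher in every RES lamb than in any ADL lamb, and in GLYATL3 and PAPSS2 the ADL 3 triangle (45.4 and 81.8 TPM) lies apart from the other ADL lambs.

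Glutathione supply and recycling had 14 of 19 genes tested, of which 9 were higher and 5 lower, with a median log2 fold change of 0.34. GCLM, the regulatory subunit of the enzyme that starts glutathione synthesis, had 55.9, 24.7, 26.8 and 30.3 TPM in the ADL lambs and 86.5, 64.3, 89.6 and 36.6 TPM in the RES lambs, and RES 4 lay below ADL 1 (log2 fold change 0.99, SE 0.33, adjusted p by limma = 0.387). CTH and CBS, which make cysteine from homocysteine, were lower: CTH had 397, 442, 37.2 and 553 TPM in the ADL lambs and 34.2, 42.0, 42.2 and 92.0 TPM in the RES lambs, and CBS had 191 ± 84.3 TPM in ADL against 92.7 ± 22.2 TPM in RES (log2 fold changes -2.33 and -0.94). In both genes ADL 3 lay within the RES range, and both fell without it (log2 fold changes -3.23 and -1.28, adjusted p by limma = 0.00238 and 0.0176). GSS, the enzyme that completes glutathione synthesis, and GGT1, which cleaves the glutamyl group from glutathione, rose without ADL 3 (log2 fold changes 0.69 and 0.90, adjusted p by limma = 0.047 and 0.0407).

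For glycine conjugation, 14 of 15 genes of acyl-CoA supply, glycine synthesis or glycine cleavage were tested. Of these, 9 were higher and 5 lower, with a median log2 fold change of 0.13. Because the cleavage genes break glycine down, these counts do not describe supply alone. ACSM3, which activates medium-chain acids with CoA, had 200.0, 234, 309 and 187 TPM in the ADL lambs and 533, 508, 423 and 371 TPM in the RES lambs (log2 fold change 0.99, SE 0.21, adjusted p by limma = 0.271). AGXT2, a mitochondrial aminotransferase that makes glycine from glyoxylate, had 77.9, 71.9, 63.2 and 73.6 TPM in the ADL lambs and 154, 146, 125 and 106 TPM in the RES lambs (log2 fold change 0.87, SE 0.17, adjusted p by limma = 0.182). In both genes the groups did not overlap, and both rose without ADL 3 (log2 fold changes 1.14 and 0.82, adjusted p by limma = 0.0108 and 0.0202). AMT, of the glycine cleavage system that breaks glycine down, had 23.5 ± 5.49 TPM in ADL against 36.6 ± 6.30 TPM in RES (log2 fold change 0.64, adjusted p by limma = 0.371).

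Regulators of the conjugating enzymes had a median log2 fold change of 0.01 over 21 tested genes, 12 higher and 9 lower. One of them, NR1I3, which codes for the nuclear receptor CAR that induces UGT and GST genes in mammalian liver, separated the groups. It had 16.8, 4.61, 20.4 and 9.16 TPM in the ADL lambs and 35.4, 33.9, 36.7 and 20.5 TPM in the RES lambs, with RES 4 lowest of its group and only just above ADL 3. The log2 fold change was 1.44 (SE 0.41, adjusted p by limma = 0.306), and it rose without ADL 3 (log2 fold change 1.72, adjusted p by limma = 0.034). FOXA2 had a log2 fold change of -0.80 with 8 lambs and fell without ADL 3 (log2 fold change -1.19, adjusted p by limma = 0.0266). PXR (NR1I2), a receptor related to CAR, had a log2 fold change of -0.02, AHR, the dioxin receptor, 0.33 and NFE2L2, which induces GST genes under oxidative stress, -0.02.

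Transporters of conjugates, a list of ABC exporters together with SLCO and SLC22A7 uptake carriers, were split. Of its 12 tested genes, 7 were higher and 5 lower (median log2 fold change 0.04). ABCC11 had 1.02, 5.11, 5.99 and 6.30 TPM in the ADL lambs and 22.1, 55.6, 35.2 and 9.71 TPM in the RES lambs, and SLC22A7, an organic anion carrier, had 20.6, 6.23, 28.9 and 25.1 TPM in the ADL lambs and 67.7, 125, 55.2 and 29.3 TPM in the RES lambs. Both separated the groups, with RES 2 the highest and RES 4 the lowest RES lamb (log2 fold changes 2.57 and 1.76, adjusted p by limma = 0.274 and 0.329), and ABCC11 rose without ADL 3 (log2 fold change 2.75, adjusted p by limma = 0.0398). ABCC6 had 95.1, 106, 38.8 and 118 TPM in the ADL lambs and 35.7, 35.6, 31.4 and 46.4 TPM in the RES lambs, with ADL 3 among the RES lambs, and fell by 1.51 without it (adjusted p by limma = 0.00261). The list for removal of a conjugated group also named carboxylesterases and TPST1 and TPST2, which add sulfate. Its counts therefore do not describe removal alone: of 9 tested genes, 3 were higher and 6 lower. Steroid sulfatase (STS), from that list, had 11.3 ± 8.83 TPM in ADL against 2.80 ± 0.83 TPM in RES (log2 fold change -1.48). It fell by 2.00 without ADL 3 (adjusted p by limma = 0.0261). Of 11 tested genes of other conjugations, 4 were higher and 7 lower, and arylamine N-acetyltransferase 1 (LOC101120889) had 24.1 ± 5.07 TPM in ADL against 16.4 ± 1.87 TPM in RES with no overlap (log2 fold change -0.52, adjusted p by limma = 0.409). LOC101106409, annotated as acyl-coenzyme A amino acid N-acyltransferase 2-like and placed in that list for bile acid conjugation, had 28.99, 26.5, 93.6 and 28.1 TPM in the ADL lambs and 87.9, 64.1, 73.5 and 45.7 TPM in the RES lambs, and rose without ADL 3, its highest lamb (log2 fold change 1.23, adjusted p by limma = 0.0155).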

How the data were processed

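Total RNA from liver kept in RNAlater was sequenced from both ends as poly(A) libraries, per the labels' protocols, with bcl2fastq 1.8.4 and DESeq2 1.12.4 named in the submitters' processing notes; the sources used here name no aligner, counter or genome build. The authors' deposited table holds TPM per lamb. It also holds, per the file headers, a normalized mean signal over lambs and the authors' DESeq2 results: log2 fold changes, a standard error and test score, and p-values with their adjusted form. TPM times the listed gene length gave whole reads (100% of values within 0.001), which served for depth and for voom. All 8 value columns were matched to lambs by the labels.

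The test was limma 3.58.1 (lmFit, eBayes with trend; R 4.3.3) for genes with a mean of at least 1 TPM, on log2(TPM + 0.5), RES over ADL, two-sided, across all genes, adjusted by Benjamini-Hochberg and called under 0.05. This pseudocount understates changes of low genes. The p-values weigh the group difference against the spread between lambs, moderated across genes. The procedure was tested on simulated data. Members, companion lists and markers were chosen with earlier results of these data known. Of the names in these lists, 175 were matched by symbol, 8 through RefSeq and 4 by alias, and 15 were not matched; 57 of the 63 members have a row in the RefSeq gene table, used for names and gene types alone. Values in every lamb were due for 20 tested members: the 12 with the smallest p, the 3 most abundant of each family, those whose groups did not overlap, and the 8 with the smallest p in each direction among those called without ADL 3. Other members with values were chosen after their values were seen. The values of 1 companion gene are not reported here. Alternatives were pseudocounts of 0.1 and 1, no filter, a filter of 5 TPM, median-of-ratios rescaling, lamb number as a block, sample quality weights, voom, age as a covariate and each lamb left out. Rescaling without ADL 3 was added after the data were seen.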

Additional observations from a re-analysis of the deposited data

Results flagged for a closer look

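In groups of 4 lambs, a value was picked out when its gap to the nearest other lamb exceeded, as a part of the group's range, Dixon's critical value, which chance gives in about 1 group in 20. Of 48 groups checked over the named genes and family sums, 3 were picked out. UGT1A6 stood at 102 TPM in RES 4, below 175 to 178 TPM in the other RES lambs. GLYATL3 stood at 45.4 TPM in ADL 3, above 2.02 to 7.21 TPM in the other ADL lambs. The summed glycine N-acyltransferases stood at 442 TPM in ADL 3, above 293 to 308 TPM in the other ADL lambs.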

How the results depend on the processing

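With all 8 lambs 1 gene of the whole table and 0 conjugation enzyme genes passed limma's adjusted threshold. The count over all genes was 0 with median-of-ratios rescaling, with no filter on low values and with voom, and 1969 with sample quality weights, which called 22 conjugation enzyme genes. Leaving out 1 lamb at a time gave 0 to 1382 genes in all and 0 to 14 conjugation enzyme genes; the highest counts came without ADL 3, and without RES 4 the counts were 49 and 3. Without ADL 3 and with rescaling they were 1150 and 18. Lamb numbers did not pair the lambs: deviations of same-numbered lambs correlated at 0.11, -0.001, -0.04 and 0.16, and a fit with the number as a replicate block called 0 genes in all. Of the 20 named genes under 18 alternatives, 315 values kept their direction and side of the threshold, 42 passed it and 2 changed sign. Both were SULT1B1, at 0.03 without ADL 1 and 0.045 without RES 2, in a range of -0.48 to 0.045 with 1 lamb left out. Genes with under 100 reads per lamb, such as UGT1A9, are limited by depth, and overlapping genes by read assignment.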

Other observations

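A few expressed genes of the same enzyme types are annotated in other words and so fell outside the selection; they were chosen after their values were seen. GSTA1-1, annotated as microsomal glutathione-S-transferase 1-1, had 303, 561, 512 and 534 TPM in ADL 1 to ADL 4 and 1812, 1605, 1178 and 432 TPM in RES 1 to RES 4. RES 1 to RES 3 were above every ADL lamb and RES 4 was within the ADL range (log2 fold change 1.25, SE 0.43, adjusted p by limma = 0.397; adjusted p = 0.0382 in the authors' deposited table). None of the tested sulfotransferase genes named by locus in this paragraph passed with 8 lambs or without ADL 3. Bile salt sulfotransferase-like LOC101119842 had 1020.3 ± 316 TPM in ADL and 1267 ± 174 TPM in RES (log2 fold change 0.37, adjusted p by limma = 0.709). Amine sulfotransferase-like LOC101104832 had 953 ± 156 and 1084 ± 444 TPM (log2 fold change 0.11, adjusted p by limma = 0.930). Sulfotransferase 1A1 (LOC101114075), the phenol sulfotransferase, had 788 ± 184 and 686 ± 102 TPM (log2 fold change -0.18, adjusted p by limma = 0.823). Sulfotransferase 1C4-like LOC101116298 had 185 ± 45.3 and 214 ± 24.6 TPM (log2 fold change 0.23, adjusted p by limma = 0.752). A second bile salt sulfotransferase-like gene, LOC101120103, had 341 ± 167 TPM in ADL and 379 ± 33.1 TPM in RES (log2 fold change 0.27, adjusted p by limma = 0.810). Sulfotransferase 1C2 (LOC101116036) was scarce except in ADL 3 at 16.3 TPM and RES 3 at 10.8 TPM, and the other 6 lambs had 0.161 to 0.912 TPM. A further 1C4-like gene, LOC101108563, was listed at 0 in every lamb.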
